A study of Mus musculus with 20 samples.

Results

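miR-146a-5p and miR-146b-5p, the 5p strands of the 2 mouse miR-146 hairpins, were taken by name from a small RNA table of whole hearts that lists 1545 entries. Both names were found, each in all 20 libraries, and both were tested. The hearts came from C57BL/6J mice: 7 had myocardial infarction and CIH (MI+CIH), 4 infarction alone (MI), 4 CIH alone (CIH), and 5 were sham controls. The labels write CIH as letters only; it is taken to mean chronic intermittent hypoxia, in which inhaled oxygen drops briefly again and again. How the infarct was made, the age of the mice, the time of sampling and whether the sham hearts were kept in normal air are not given in the sources used here. No label ties a library to an animal, so p-values measure the spread between these libraries. In RNA from a whole heart, fewer cells of a type and less of an RNA per cell cannot be told apart.

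miRNAs are short RNAs that guide repression of messenger RNAs, mainly by pairing of the seed near their 5′ end. Both miR-146 genes are known to be switched on by NF-kappaB, the transcription factor that acts downstream of Toll-like receptors and cytokine receptors. In myeloid and other cells miR-146 represses IRAK1 and TRAF6, proteins that carry those receptors' signals, and so closes a negative feedback loop on inflammation. In the heart, damaged muscle releases molecules that Toll-like receptors sense, and leukocytes enter the infarct.

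The sequences are shown because the seed sets which messages both miRNAs can pair with, and because so little separates them. Capitals mark the seed, bases 2 to 8 from the 5′ end.
miR-146a-5p: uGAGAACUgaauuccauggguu
miR-146b-5p: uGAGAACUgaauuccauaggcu
The sequences are those of RefSeq, on GRCm38.p6, the assembly of the mm10 build that the submitters' processing notes name. The strands share 20 of 22 bases and differ by G18A and U21C, counted from 1 at the 5′ end with the base of miR-146a-5p first. The seed GAGAACU occurred in 2 of 1679 mature mouse miRNA names, these 2. Reads of the 2 names are told apart only by those bases close to the 3′ end. The counting rule for reads that fit both is not given in the sources used here, so the split between the names is uncertain. Their sum does not depend on the split if each such read was counted under a single name, which was not tested.

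The hairpins are given because their loops and opposite strands differ, with both mature strands in capitals.
Mir146: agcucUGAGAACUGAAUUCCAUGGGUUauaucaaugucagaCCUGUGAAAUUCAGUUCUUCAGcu
Mir146b: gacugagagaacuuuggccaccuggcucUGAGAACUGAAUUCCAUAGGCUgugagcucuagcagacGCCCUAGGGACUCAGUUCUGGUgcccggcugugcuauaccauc
Mir146 lies at chr11:43374397-43374461 on the minus strand, and in GENCODE M21 no other gene overlaps it. Mir146b lies at chr19:46342762-46342870 on the plus strand, inside an intron of the protein-coding gene Mfsd13a (transcript Mfsd13a-202, same strand). In RefSeq the lncRNA Gm36493 spans the same place. The 5p strands were at chr11:43374435-43374456 and chr19:46342790-46342811.

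Reads came almost wholly from the 5p strands. Over all libraries the miR-146a hairpin gave 111923 reads of its 5p strand and 5 of its 3p strand, in 3 libraries. The miR-146b hairpin gave 67826 reads of its 5p strand and 76 of its 3p strand, in 14 libraries, a 3p share of 0.112%. Only 5 libraries held more than 3 reads of miR-146b-3p and none of miR-146a-3p, and neither passed the filter for testing (5 or more RPM, reads per 1000000 miRNA reads of a library, in 4 or more libraries). By mean level, miR-146a-5p ranked 64th and miR-146b-5p 73rd of the 1545 entries.

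Levels are in RPM, and the libraries held 1991323 to 18138415 reads. All 5 listed cardiac muscle miRNAs, among them miR-1a-3p, were present in every library, summing to between 88429 and 317715 RPM. The libraries fell into 3 sets in a clustering made without any miR-146 entry. The first, called A, has 11 libraries: MI+CIH 1, MI 2 and every CIH and sham library. The second, B, has 6, namely MI+CIH 2 to 5 with MI 1 and MI 3. The last, C, has 3, namely MI+CIH 6 and 7 with MI 4. Libraries correlated at r = 0.908 to 0.994 within a set and 0.709 to 0.934 between sets. No label names the sets. Since MI 2 and MI+CIH 1 are the only infarcted hearts of set A, and sets B and C hold no uninfarcted heart, set and infarction can largely not be told apart.

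In RPM, both miRNAs were higher in most infarcted hearts than in uninfarcted ones. Among infarcted hearts MI 2 stood apart in both, and MI+CIH 1 in miR-146a-5p. miR-146a-5p had 101 RPM in the lowest, 1014 in the median and 2356 in the highest of the 7 MI+CIH hearts. In MI hearts it had 953, 48.8, 435 and 1485 RPM. In CIH hearts it had 25.9, 40.2, 68.3 and 44.7 RPM, and in sham hearts 107, 44.0, 30.7, 54.6 and 71.9 RPM. So 6 of 7 MI+CIH hearts and 3 of 4 MI hearts exceeded every sham heart, the exceptions being MI+CIH 1, just under sham 1, and MI 2, within the sham range. Of all tested miRNAs, 35.0% had at least 6 of 7 MI+CIH hearts and 35.8% had at least 3 of 4 MI hearts above every sham heart. Every MI heart was above every sham heart for 3.61%, and MI 2 above every uninfarcted heart for 2.78%. Means were 1132 ± 768 RPM in MI+CIH (SD, n = 7), 730.5 ± 624.6 in MI (n = 4), 44.8 ± 17.6 in CIH (n = 4) and 61.7 ± 29.7 in sham hearts (n = 5).

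miR-146b-5p had 403 RPM in the lowest, 577 in the median and 1628 in the highest MI+CIH heart. In MI hearts it had 473, 103, 314 and 323 RPM. In CIH hearts it had 57.9, 76.0, 149.7 and 64.9 RPM, and in sham hearts 194, 96.0, 84.0, 84.2 and 76.7 RPM. All 7 MI+CIH hearts lay above every sham and CIH heart, MI+CIH 1 included, while MI 2 again lay within the sham range. Of all tested miRNAs, 13.6% had every MI+CIH heart above every sham heart and 27.8% above every CIH heart. The share above both was not counted. By rank within a library the groups overlapped. miR-146b-5p ranked 39th to 84th in MI+CIH, 74th to 89th in MI, 70th to 114th in CIH and 74th to 100th in sham hearts. Means were 828 ± 525 RPM in MI+CIH (SD, n = 7), 303 ± 152 in MI (n = 4), 87.1 ± 42.4 in CIH (n = 4) and 107 ± 49.2 in sham hearts (n = 5). For both miRNAs the means ran from MI+CIH through MI and sham to CIH, and no step between neighbours in that order passed the test across all miRNAs.

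**Figure D1:**
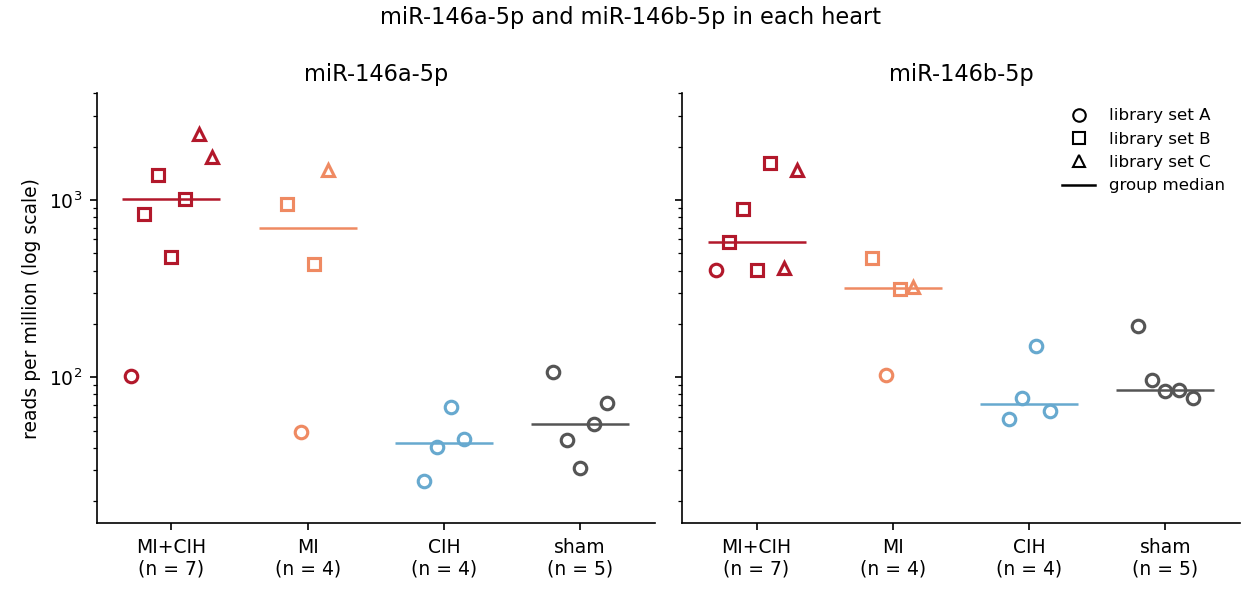
Level of miR-146a-5p (left) and miR-146b-5p (right) in each heart, in RPM on a log axis, by group. Each point is a heart, its shape the library set and the line the group median; MI+CIH 1 has 101 RPM of miR-146a-5p but 403 RPM of miR-146b-5p, and MI 2 is low in both.

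The counting error is small beside these spreads. The 95% Wilson interval was widest for miR-146a-5p in CIH 1 (185 reads, 22.4 to 29.9 RPM), and it covers counting error only. The sum of both was 1959.6 ± 1034 RPM in MI+CIH, 1034 ± 733 in MI, 132 ± 59.1 in CIH and 169 ± 75.4 in sham hearts.

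The comparison of MI+CIH with sham asks how hearts with both insults differ from controls, and both miRNAs rose. In limma on log2(RPM + 1) over 360 miRNAs, miR-146a-5p rose by 3.83 on the log2 scale (SE 0.75, adjusted p = 0.00130) and miR-146b-5p by 2.80 (SE 0.48, adjusted p = 0.000490). They ranked 12th and 6th by p. Of the 360 miRNAs tested, 56.7% passed, 188 (52.2%) higher and 16 lower, so passing does not set the pair apart. The median change of all 360 was 1.39. With median-of-ratios scaling, 61 were higher and 51 lower, the median of all was 0.12, and miR-146a-5p rose by 2.43 (adjusted p = 0.0121) and miR-146b-5p by 1.40 (adjusted p = 0.0139). No overlap with sham, as for miR-146b-5p, was found in 13.6% of the miRNAs. With the library set as a term neither call was kept, at 0.59 for miR-146a-5p (adjusted p = 0.694) and 1.65 for miR-146b-5p (adjusted p = 0.407).

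Against CIH hearts, which share the exposure but not the infarct, MI+CIH hearts were all higher in both miRNAs, with no overlap, as for 27.8% of all tested. miR-146a-5p rose by 4.23 (SE 0.81, adjusted p = 0.00117) and miR-146b-5p by 3.10 (SE 0.52, adjusted p = 0.000712), the second smallest p of the 360, beside a median of all of 1.51. In that comparison 56.9% passed, 197 (54.7%) higher and 8 lower (49 and 48 with median-of-ratios scaling, where miR-146a-5p rose by 2.57 and miR-146b-5p by 1.43). The call of miR-146b-5p was lost with TMM scaling (1.24, adjusted p = 0.0586) and in edgeR (1.39, adjusted p = 0.0626). Both calls were lost with the library set as a term, at 0.997 for miR-146a-5p (adjusted p = 0.307) and 1.96 for miR-146b-5p (adjusted p = 0.205).

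Taken over all 11 infarcted against all 9 uninfarcted hearts, miR-146a-5p rose by 3.55 (SE 0.59) and miR-146b-5p by 2.25 (SE 0.38), each with adjusted p = 0.000222. They ranked 6th and 7th by p, 64.4% of the miRNAs passed, 218 higher and 14 lower (79 and 66 with median-of-ratios scaling, where the values were 2.26 and 0.95), and the median of all was 1.26. miR-146b-5p did not pass with TMM scaling (0.76, adjusted p = 0.0839) or in edgeR (0.82, adjusted p = 0.0777). With the library set as a term neither passed, at 0.52 for miR-146a-5p (adjusted p = 0.805) and 1.17 for miR-146b-5p (adjusted p = 0.682). Above every uninfarcted heart lay 9 of 11 infarcted hearts for miR-146a-5p, all but MI 2 and MI+CIH 1, and 10 of 11 for miR-146b-5p, all but MI 2. At least 9 of 11 did so for 25.3% of the miRNAs, at least 10 for 10.3% and all 11 for 1.11%.

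Infarction alone against sham gave estimates of the same sign that did not pass in limma over the 360 miRNAs. The log2 difference of MI from sham was 2.87 for miR-146a-5p (SE 0.86, 95% interval 1.08 to 4.65, adjusted p = 0.0701) and 1.40 for miR-146b-5p (SE 0.55, 0.25 to 2.54, adjusted p = 0.125). None of the 360 miRNAs (0.0%) passed in limma or edgeR and 39 did in DESeq2, miR-146a-5p among them and miR-146b-5p not. Unadjusted p was below 0.05 for 101 in limma, 72 in edgeR and 106 in DESeq2. In limma on the 166 miRNAs with a mean of at least 50 RPM 14 passed, again with miR-146a-5p and without miR-146b-5p. With median-of-ratios scaling the differences were 1.94 and 0.47, and with the library set as a term 0.033 and 0.39 (each adjusted p = 0.996). These values depended on MI 2: without it they were 3.89 (adjusted p = 0.00298) and 1.85 (adjusted p = 0.0176), both past the threshold. Without MI+CIH 1, which enters the shared estimate of spread, miR-146a-5p also passed (adjusted p = 0.0199).

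**Figure D2:**
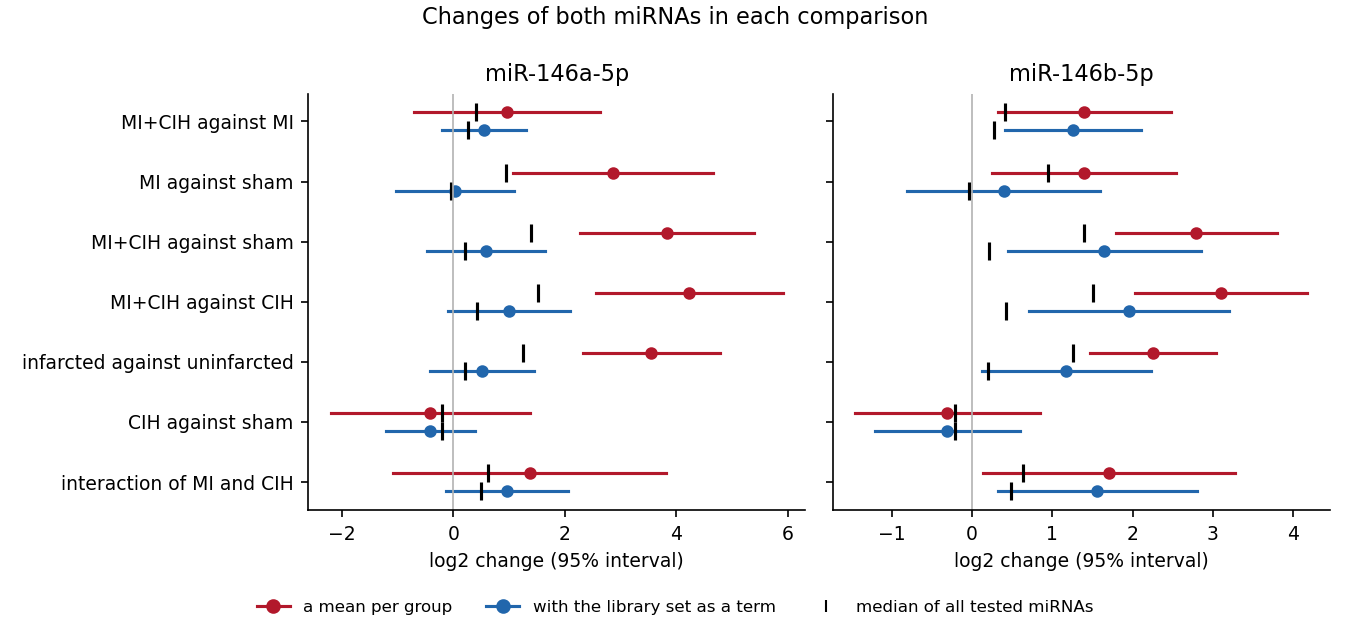
Log2 change of each miRNA with its 95% interval, for a mean per group (red) and with the library set as a term (blue); black ticks are the median of all 360 tested miRNAs. The red intervals of MI+CIH against sham lie above 0 for both miRNAs, and in blue the change of miR-146a-5p is 0.59.

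CIH alone against sham was the one comparison with no infarcted heart and a single library set. miR-146a-5p differed by −0.41 (SE 0.86, 95% interval −2.20 to 1.38) and miR-146b-5p by −0.31 (SE 0.55, −1.45 to 0.84), each with adjusted p = 0.998 in limma. Their ranges overlapped, and the intervals still allow a change of either sign. None of the miRNAs (0.0%) passed in limma or edgeR and 1 did in DESeq2. Unadjusted p was below 0.05 for 1 in limma, 7 in edgeR and 10 in DESeq2. That limma fit takes its spread from all 20 libraries, infarcted hearts included. In limma on the CIH and sham hearts alone, unadjusted p was below 0.05 for 35 miRNAs, and with the library set as a term for 15. None passed in either. With the set term the SE was 0.38 for miR-146a-5p (95% interval −1.20 to 0.39) and 0.43 for miR-146b-5p (−1.21 to 0.60).

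MI+CIH against MI asks what CIH adds to infarction. The mean level was higher in MI+CIH for both, and neither passed. The log2 difference was 0.96 for miR-146a-5p (SE 0.81, 95% interval −0.71 to 2.63, adjusted p = 0.895) and 1.40 for miR-146b-5p (SE 0.52, 0.33 to 2.47, unadjusted p = 0.0129, adjusted p = 0.772), with a median of all of 0.41. None of the miRNAs (0.0%) passed in limma, edgeR or DESeq2, and unadjusted p was below 0.05 for 17, 15 and 22 of them. Only 2 of 7 MI+CIH hearts exceeded every MI heart for miR-146a-5p and 4 of 7 for miR-146b-5p. At least 2 did so for 67.8% of the miRNAs, at least 4 for 15.6% and all 7 for 0.278%. Without MI 2 the difference of miR-146a-5p was −0.065 (adjusted p = 0.994), the other sign.

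Within library sets both groups are present, so this comparison could be made with the set held constant. In set A, MI+CIH 1 had 101 RPM of miR-146a-5p and 403 of miR-146b-5p, against 48.8 and 103 in MI 2. In set B, MI+CIH hearts had 479 to 1383 RPM of miR-146a-5p and 405 to 1628 of miR-146b-5p, against 435 and 953, and 314 and 473, in the 2 MI hearts. In set C, MI+CIH 6 had 2356 RPM of miR-146a-5p and 416 of miR-146b-5p. MI+CIH 7 had 1754 and 1477, against 1485 and 323 in MI 4. Counted over the sets, 5 of 7 MI+CIH hearts for miR-146a-5p and 6 of 7 for miR-146b-5p exceeded each MI heart in the same set. At least 6 of 7 was seen in 16.1% of the miRNAs. The share with at least 5 of 7 was not counted, so the count of miR-146a-5p cannot be set beside that of all miRNAs.

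The mean log2 difference within sets was 0.54 for miR-146a-5p (exact permutation p = 0.144, two-sided) and 1.23 for miR-146b-5p (exact permutation p = 0.0667), where the smallest p that the 90 arrangements allow is 0.0111. In limma with the set as a term, the difference was 0.55 for miR-146a-5p (SE 0.36, adjusted p = 0.476) and 1.26 for miR-146b-5p (SE 0.41, 95% interval 0.41 to 2.11, unadjusted p = 0.00599, adjusted p = 0.154). That fit called 0.556% of the miRNAs, neither of the pair among them. The interaction, the extra effect of CIH in infarcted over uninfarcted hearts, was 1.37 for miR-146a-5p (SE 1.18) and 1.71 for miR-146b-5p (SE 0.76), each with adjusted p = 0.880 in limma. None of the miRNAs (0.0%) passed there in limma, edgeR or DESeq2, and unadjusted p was below 0.05 for 14, 13 and 18 of them.

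The level of miR-146a-5p separated the library sets, although it took no part in defining them. Set A ran from 25.9 to 107 RPM, set B from 435 to 1383 RPM and set C from 1485 to 2356 RPM. Sets without overlap in this order were found for 5 of 360 miRNAs (1.39%), and in any order for 15.3%. miR-146b-5p overlapped between sets: set A ran from 57.9 to 403 RPM, set B from 314 to 1628 RPM and set C from 323 to 1477 RPM. With the set as a term, the difference of MI+CIH from sham kept a 95% interval above 0 for miR-146b-5p (0.45 to 2.85, unadjusted p = 0.00980), and 0.0% of the miRNAs passed. That estimate rests on MI+CIH 1 and MI 2 beside the sham hearts of set A, and on the differences between MI+CIH and MI within sets B and C. The CIH hearts, all in set A with a mean of their own, enter only its spread. MI+CIH 1 lay above every uninfarcted heart for miR-146b-5p, as for 25.3% of the miRNAs, and not for miR-146a-5p.

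The balance of the pair moved with the sets too. miR-146b-5p was the higher of the 2 in 11 of 11 hearts of set A, in 1 of 6 of set B (MI+CIH 5) and in none of the 3 of set C. The ratio of miR-146a-5p to miR-146b-5p ran from 0.25 to 0.94 for set A, from 0.62 to 2.01 for set B and from 1.19 to 5.66 for set C. By group, miR-146a-5p made up 20.03% to 85.0% of the pair's reads in MI+CIH, 32.0% to 82.1% in MI, 30.9% to 40.8% in CIH and 26.8% to 48.4% in sham hearts. The groups overlap, and all uninfarcted hearts had less of miR-146a-5p than of miR-146b-5p. The ratio bears the uncertainty in how reads were split between the names.

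**Figure D3:**
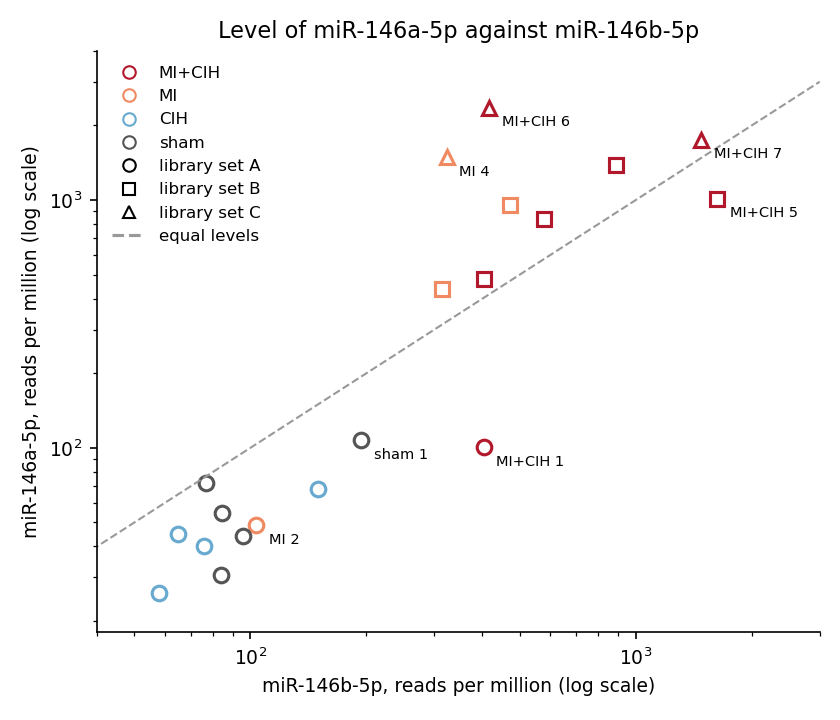
miR-146a-5p against miR-146b-5p in each heart, both in RPM on log axes, coloured by group with the library set as the shape; the dashed line marks equal levels. Hearts of set A lie below the line and hearts of set C above it, with MI+CIH 6 at a ratio of 5.66.

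Other miRNAs known to be induced through Toll-like receptors or NF-kappaB, or to act on that pathway, had a median change close to that of all tested miRNAs. Of the 11 listed, 6 were tested, and in MI+CIH against sham 4 rose and 0 fell, where 52.2% of all tested miRNAs rose. miR-155-5p, a miRNA of activated macrophages and lymphocytes, had 212 ± 160 RPM in MI+CIH and 22.2 ± 5.78 in sham hearts and rose by 2.72 (adjusted p = 0.00341). miR-132-3p rose by 2.27 (adjusted p = 0.0229), and its hairpin's other strand miR-132-5p by 1.27 (adjusted p = 0.0224). miR-212-5p, of the same cluster, rose by 1.55 (adjusted p = 0.00311). The median of the 6 was 1.41, against 1.39 for all tested. With median-of-ratios scaling only miR-155-5p still rose (1.34, adjusted p = 0.0301), miR-132-5p had the other sign (−0.07) and miR-9-5p fell by 1.23 (adjusted p = 0.0121), while the median was 0.16 against 0.12 for all. Over infarcted against uninfarcted hearts 4 rose, where 60.6% of all did, with a median of 1.23 against 1.26. With median-of-ratios scaling 1 rose there (miR-155-5p, 1.05), and miR-21a-5p fell by 1.28 (adjusted p = 0.0420) and miR-9-5p by 0.68 (adjusted p = 0.0464). None of the 6 passed in MI+CIH against MI. miR-21a-5p, a miRNA of fibroblasts and macrophages in injured hearts, differed by 0.12 in MI+CIH against sham. With the set as a term 0 of 6 passed, miR-155-5p being at −0.05 and miR-146b-5p at 1.65.

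Markers of other cells differed between the groups as well, and their part in the results was not tested. Of 9 listed leukocyte miRNAs 7 were in the table and tested, and none was at 0 throughout a group. Their summed level was 419 to 2214 RPM in MI+CIH, 226 to 1700 in MI, 270 to 522 in CIH and 307 to 669 in sham hearts. In MI+CIH against sham 4 of 7 rose and 0 fell: miR-155-5p, miR-223-3p, a miRNA of neutrophils and monocytes (1.95, adjusted p = 0.00299), miR-223-5p (1.94, adjusted p = 0.00292) and miR-342-3p (2.36, adjusted p = 0.00257). The share of all tested miRNAs that rose was 52.2%, and the list's median was 1.95, against 1.39 for all. With median-of-ratios scaling miR-155-5p and miR-342-3p rose and miR-142a-5p fell by 2.50 (adjusted p = 0.0126), and the list's median was 0.64. By set, the leukocyte sum was 226 to 669 RPM in A, 1352 to 2214 in B and 375 to 721 in C. The members did not share this order. miR-223-3p had 5.31 to 17.5 RPM in A, 14.5 to 84.3 in B and 18.8 to 79.6 in C, and miR-155-5p had 13.1 to 28.1, 182 to 480.4 and 67.6 to 114. For both, every heart of set C exceeded every heart of set A, and the same held for miR-342-3p and miR-142a-3p. The share of all tested miRNAs that did so was not counted. miR-142a-3p was lowest in B, averaging 12.6, 2.21 and 61.4 RPM in A, B and C. miR-142a-5p, with a sham mean of 291 RPM, overlapped between A (91.4 to 475) and C (92.8 to 251). So did miR-150-5p (42.2 to 173 in A, 73.2 to 108 in C) and miR-223-5p (1.75 to 4.94 in A, 4.46 to 12.1 in C).

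Fibroblast and endothelial miRNAs also differed between the sets. In MI+CIH against sham, where 52.2% of all tested miRNAs rose (median of all 1.39), the 3 listed fibroblast miRNAs all rose. They were miR-199a-3p (2.37), miR-199a-5p (2.13) and miR-214-3p (3.75). Only miR-214-3p of these passed with median-of-ratios scaling (2.37, adjusted p = 0.0121). The summed fibroblast level was 1263 to 6822 RPM in MI+CIH, 363 to 3935 in MI, 187 to 423 in CIH and 386 to 1844 in sham hearts. By set the sum averaged 626 RPM in A, 3490.4 in B and 5216 in C. The endothelial miR-126a strands summed to 5976 to 10970.2 RPM in set A, 3162 to 7513 in B and 24768 to 50262 in C. Of those, miR-126a-5p fell by 1.53 in MI+CIH against sham (adjusted p = 0.00539) and miR-126a-3p was at 0.11 (−1.29 with median-of-ratios scaling). The summed endothelial level was 3162 to 50262 RPM in MI+CIH, 5397 to 47505 in MI, 5976 to 10970.2 in CIH and 8459 to 10682 in sham hearts. The sum is mostly miR-126a-3p, at 24287 to 49894 RPM in set C and 5357 to 9206 in set A. miR-126a-5p ran the other way, at 367 to 481 RPM in set C and 488 to 1821 in set A. In MI+CIH against sham 1 of 5 cardiac muscle miRNAs rose and 3 fell. Of 3 erythrocyte miRNAs 1 rose and 1 fell, and of 2 smooth muscle miRNAs 1 rose and 0 fell. With median-of-ratios scaling 0 rose in each of these lists, while 3 cardiac muscle, 1 erythrocyte and 1 smooth muscle miRNA fell. The smooth muscle one was miR-143-3p (−2.27, adjusted p = 0.00788). Of all 360 tested miRNAs 51 fell with that scaling. In sets A, B and C the cardiac muscle sum averaged 268141, 138031 and 268788 RPM. The smooth muscle sum averaged 211136, 189457 and 33687 RPM, and the erythrocyte sum 1656, 9053 and 2817 RPM.

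**Figure D4:**
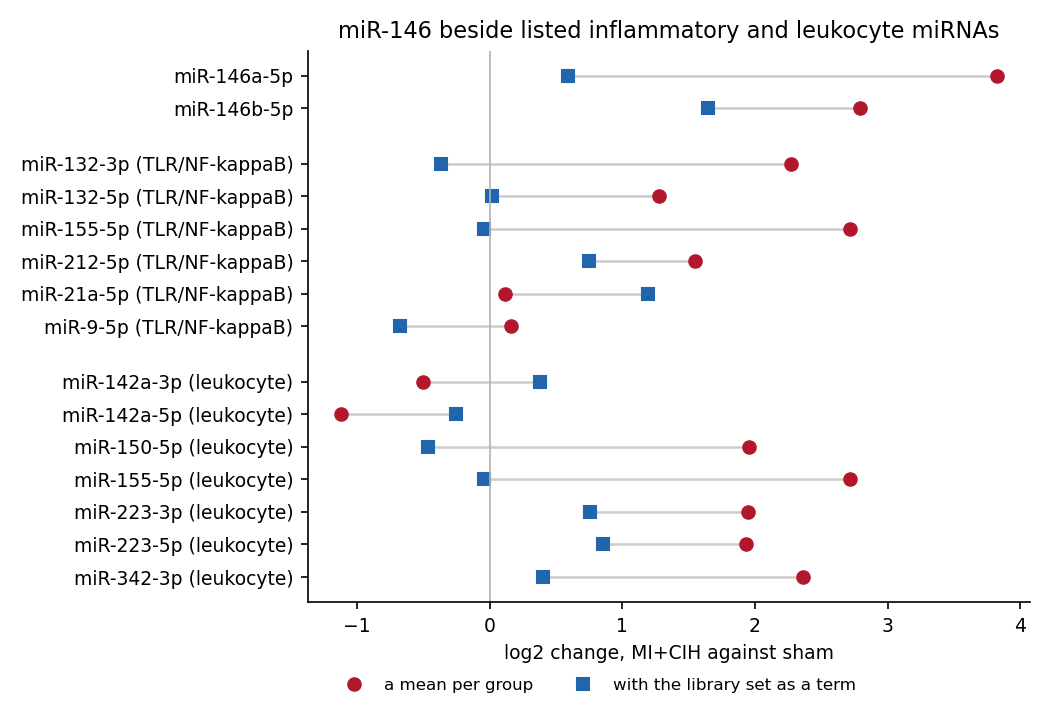
Log2 change in MI+CIH against sham for miR-146a-5p, miR-146b-5p and the tested members of the TLR/NF-kappaB and leukocyte lists, with a mean per group (red circles) and with the library set as a term (blue squares). With the set as a term miR-146b-5p is at 1.65 and miR-155-5p at −0.05.

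With set means subtracted, the levels most like each of the pair over the 20 libraries belonged to different miRNAs. For miR-146a-5p these were miR-497a-5p (r = 0.80), miR-329-3p (0.76), miR-203-3p (0.75), miR-669a-3p (0.72) and miR-324-5p (0.72). For miR-146b-5p these were miR-223-3p (r = 0.88), miR-21a-5p (0.86), miR-34c-5p (0.86), miR-3081-3p (0.83) and let-7i-5p (0.80). The pair correlated with each other at r = 0.68, which placed miR-146b-5p 13th for miR-146a-5p, and miR-146a-5p 25th for miR-146b-5p. miR-223-3p was 49th for miR-146a-5p (r = 0.57). These values describe libraries that share their depth and total, and no test was made on them. miR-329-3p, miR-669a-3p, miR-324-5p and miR-3081-3p stayed under 5 RPM in every CIH and sham heart. They passed the filter through infarcted hearts only, with sham means of 1.91, 1.43, 2.05 and 1.15 RPM. miR-21a-5p reached 100570 RPM in its highest sham heart, against a sham median of 23457. How far these values rest on single hearts such as MI+CIH 1 and sham 1 was not tested.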

How the data were processed

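Small RNA was sequenced from 20 mouse hearts. Per the labels' protocols, RNA was extracted with Trizol from flash frozen hearts and made into libraries with a NEBNext small RNA kit. The submitters' processing notes name Bowtie, DESeq 1.8.3 and mm10 without saying what each was used for. The deposited table is labelled TPM, but by its values the authors computed RPM: columns sum to 1000000, and 100% of values were whole multiples of 1 read (tolerance 0.05), so reads were recovered. In all, 11 entries repeat another entry's values within 5% and hold 7.79% to 31.6% of reads; none is a miR-146 entry.

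Testing was limited to the 360 miRNAs that reached 5 RPM in 4 or more libraries. log2(RPM + 1), which understates changes of low miRNAs, was fitted in limma 3.58.1 (R 4.3.3) with a mean per group, 16 residual degrees of freedom and a trended prior (5.90). p was two-sided and adjusted by Benjamini-Hochberg over the 360 within each comparison, threshold 0.05. The interaction and the pooled infarction contrast came from the same fit. Library sets came from average-linkage clustering on 1 minus Pearson's r. edgeR 4.0.16 (quasi-likelihood, calling 0, 85, 135 and 75 in MI against sham, MI+CIH against sham, infarcted against uninfarcted and MI+CIH against CIH) and DESeq2 1.42.0 were run on recovered reads. Other alternatives were pseudocounts (0.5 and 5 RPM), filters (none, or a mean of 50 RPM or more), scaling (median of ratios, TMM), sample weights, only the groups compared, a replicate block, the library set as a term (14 residual degrees of freedom), removal of the repeated entries, and leaving out each library in turn or sham 1 with MI 2. A count of 3 reads was 0.165 to 1.51 RPM. The miRNAs named are the pair, the other strands of their hairpins, listed miRNAs, and the 5 most alike per member. The members and lists were chosen with earlier results of these data known. The limma fit with a mean per group was tried on simulated counts for MI against sham. Those counts had no library sets and the same spread setting for all miRNAs, so the trial does not cover the sets.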

Additional observations from a re-analysis of the deposited data

Results flagged for a closer look

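Of 12 groups of values looked at for a heart far from the rest of its group (each miRNA and their ratio in each of the 4 groups), 2 held one. Chance alone marks about 1 in 20 such groups. miR-146b-5p in sham 1 was 194 RPM, with the next sham heart at 96.0 and the lowest at 76.7; without sham 1 the sham mean was 85.2 RPM. The ratio of miR-146a-5p to miR-146b-5p in MI+CIH 6 was 5.66, with the next MI+CIH heart at 1.55 and the lowest at 0.25; MI 4, of the same library set, had a ratio of 4.60.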

How the results depend on the processing

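Over the 16 results and all alternatives, 477 values kept their direction and side of the threshold, 10 lost the call, 9 gained it and 4 changed sign. The causes were not tested.

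MI+CIH against sham passed for both miRNAs under every alternative except the set term, but TMM scaling lowered the median of all from 1.39 to −0.08, and the changes to 2.22 (adjusted p = 0.0184) for miR-146a-5p and 1.18 (adjusted p = 0.0454) for miR-146b-5p. For miR-146b-5p, infarcted against uninfarcted was 0.76 with TMM scaling and 0.82 in edgeR, and MI+CIH against CIH was 1.24 and 1.39, each short of the threshold. With the set as a term no comparison passed: MI+CIH against sham was 0.59 for miR-146a-5p and 1.65 for miR-146b-5p, infarcted against uninfarcted 0.52 and 1.17, MI+CIH against CIH 0.997 and 1.96, and MI against sham 0.033 and 0.39.

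MI against sham passed for miR-146a-5p with a mean of at least 50 RPM (2.87, adjusted p = 0.0416), in DESeq2 (2.61, adjusted p = 0.0122), with sample weights (3.79) and without sham 1 and MI 2 (4.12), and for miR-146b-5p under both of the last settings (2.16 and 2.08). The sample weights did not converge. MI+CIH against MI for miR-146a-5p was −0.065 without MI 2, with or without sham 1. CIH against sham for miR-146b-5p was 0.027 in edgeR and 0.073 in DESeq2.

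Leaving out each library in turn, miR-146a-5p ran from −0.065 to 1.57 in MI+CIH against MI, 2.26 to 3.89 in MI against sham, 3.57 to 4.32 in MI+CIH against sham and 0.34 to 0.77 within library sets (exact permutation p = 0.0667 to 0.367). miR-146b-5p ran from 0.95 to 1.68, 1.12 to 1.85, 2.59 to 3.03 and 0.90 to 1.41 (exact permutation p = 0.05 to 0.133).

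Counts of called miRNAs moved by over 1.5 times in these cases. The number tested was 360, or 1416 with no filter and 166 with a mean of at least 50 RPM. At 50 RPM the share called stayed close in MI+CIH against sham (55.4%, from 56.7%). It did so too in infarcted against uninfarcted (64.5%, from 64.4%) and MI+CIH against CIH (56.6%, from 56.9%). Those counts thus fell with the number tested. In MI against sham that share was 8.43%, from 0.0%. With no filter the share in MI+CIH against sham was 9.53%. MI against sham (0) had 14 with a mean of at least 50 RPM, 39 in DESeq2, 261 with sample weights, 31 without MI+CIH 1, 113 without MI 2 and 114 without sham 1 and MI 2. MI+CIH against sham (204) had 135 with no filter, 92 with a mean of at least 50 RPM, 112 with median-of-ratios scaling, 114 with TMM, 85 in edgeR and 0 with the set term. Infarcted against uninfarcted (232) had 107, 145, 143, 135 and 0 in the last 5 of these settings. MI+CIH against CIH (205) had 94, 97, 90, 75 and 0 in those 5, 133 in DESeq2 and 308 with sample weights. MI+CIH against MI (0) had 1 with sample weights, 2 with the set term, 3 without MI+CIH 1 and 1 without MI 3, and CIH against sham (0) had 1 in DESeq2 and 2 with sample weights. Higher and lower calls in MI+CIH against sham were 51 and 63 with TMM scaling.

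Whether the replicate numbers pair the libraries could not be decided. Deviations from group means correlated over 0.1 in 10 of 25 same-numbered pairs (range −0.711 to 0.867). Among libraries of other groups, 4 of 20 libraries correlated best with their own number. Such deviations also carry the library sets, and the share over 0.1 among pairs with different numbers was not counted. With the replicate block no call on either miRNA changed, and MI+CIH against sham was 3.30 and 2.73, with 218 miRNAs called. Depth is not the limit for the pair, with at least 185 reads each, but it is for the 3p strands.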

Other observations

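Within sets A and B, hearts with more miR-146a-5p tended to have more miR-146b-5p, on the log2 scale. Set C, with 3 hearts, was left out. The uncertainty in how reads were split between the names bears on this relation too. How many other pairs of miRNAs correlated as closely was not counted. Over the 20 libraries with set means subtracted, miR-146b-5p was 13th for miR-146a-5p and miR-146a-5p 25th for miR-146b-5p. In set A (n = 11) Pearson's r was 0.79 (permutation p = 0.0029, adjusted over 2 relations 0.0058) and Spearman's rho 0.73 (permutation p = 0.0141, adjusted 0.0282). Without MI+CIH 1 and sham 1, r was 0.58. In set B (n = 6) r was 0.75 (exact permutation p = 0.0611, adjusted 0.0611) and rho 0.89 (exact permutation p = 0.0333, adjusted 0.0333). Without MI 3 and MI+CIH 4, r was 0.37, over the 4 hearts left, so the relation in set B rests on those hearts.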
